A study of Mus musculus with 8 samples.

Results

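The histone cluster genes of the mouse make the bulk histone proteins around which DNA is wound. They were taken here as the rows of the raw count table whose symbol starts with Hist1h, Hist2h, Hist3h or Hist4h and does not end in -ps, which gave 69 of the 53647 named genes of the table. By histone type they were 6 genes for the linker histone H1, 20 for H2A, 18 for H2B, 12 for H3 and 13 for H4, and 2 of them, Hist1h2aj and Hist1h2al, are annotated as pseudogenes. In GENCODE M21 on mm10, 56 lie on chromosome 13, 10 on chromosome 3, 2 on chromosome 11 and 1 on chromosome 6. Messenger RNA with a polyA tail was sequenced from 8 libraries of C57BL/6 mouse leukemia macrophages, which the labels describe as sorted from 12 h cultures. In 4 libraries, called E-Mac, the macrophages had shared the culture with mesenchymal stromal cells (MSC, which form part of the supporting tissue of the bone marrow), and in the other 4, called Mac, they had been cultured alone. Both groups carry the leukemia label, which does not name the leukemia model. The comparison asks how transcripts of the sorted cells differ after the co-culture.

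Most of these genes are replication-dependent. Their messages are made while DNA is copied in S phase, as a rule have no introns, and end in a short stem-loop in place of a polyA tail, which the stem-loop binding protein SLBP holds. A polyA-selected library is meant to catch the polyadenylated form, which some of these genes also make, mainly in cells that have stopped dividing. The replication-independent histone genes, such as H2afz and H3f3b, as a rule make ordinary polyadenylated messages that are not confined to S phase. The values below are therefore values of histone RNA in polyA-selected libraries and do not measure the stem-loop-ended form. The tails of the counted RNA were not measured, so stem-loop-ended RNA left after the selection cannot be told apart.

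The stem-loop of the members that carry most of the results is shown with 5 bases on each side. The 16 capitals mark a stem of 6 base pairs and a loop of 4 bases, read 5′ to 3′ on the gene's own strand (mm10).
Hist1h1c: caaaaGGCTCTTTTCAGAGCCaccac
Hist1h2ac: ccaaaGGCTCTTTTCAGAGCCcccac
Hist1h2bg: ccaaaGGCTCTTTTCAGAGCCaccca
Hist3h2a: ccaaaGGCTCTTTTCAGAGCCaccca
Hist1h3c: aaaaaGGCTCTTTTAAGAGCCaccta
Hist1h4i: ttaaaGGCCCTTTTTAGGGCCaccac
In coordinates these capitals are chr13:23739512-23739527 (plus strand) in Hist1h1c, chr13:23683477-23683492 (minus strand) in Hist1h2ac and chr13:23571843-23571858 (plus strand) in Hist1h2bg. For Hist3h2a they are chr11:58955172-58955187 (plus strand), for Hist1h3c chr13:23745047-23745062 (minus strand) and for Hist1h4i chr13:22040966-22040981 (minus strand). The letters searched were GG, any 3 bases, TTTT, any base, A, any 3 bases and CC, with all 6 stem bases paired. They stood in the annotated transcripts of 44 of the 69 members, and of 11 of 21810 other protein-coding genes (0.0504%), among them H2afx and Trim17, a gene that overlaps Hist3h2a. By type they were found in 4 H1, 11 H2A, 10 H2B, 8 H3 and 11 H4 genes. The annotated transcripts went on past the stem-loop by 840 bases in Hist1h1c, 2010 in Hist1h2ac, 155 in Hist1h2bg, 1643 in Hist3h2a, 74 in Hist1h3c and 330 in Hist1h4i, so each has an annotated end beyond the site. The letters were not in the annotated transcripts of 3 of the 16 members tested below, Hist1h2bc, Hist2h2be and Hist1h1b. The annotation of Hist1h1b has no 3′ untranslated region, so nothing past its coding sequence was searched. The same held for many other members without the letters, such as Hist1h2bl, Hist1h3h and Hist1h4k. The counts of members with the letters, in all and by type, therefore do not show that the others lack a stem-loop.

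Total counts were 13377046 to 15740846 in E-Mac libraries and 11646025 to 15556935 in Mac libraries. Whether each library is a separate animal or culture is not in the labels, and the p-values therefore cover the spread among these 8 libraries, possibly a technical one. E-Mac 2 and 4 stood apart from E-Mac 1 and 3: 16 stromal markers summed to 373 and 391 counts per 1000000 (CPM) in E-Mac 2 and 4 and to 78.8 and 65.1 CPM in E-Mac 1 and 3. In Mac libraries the stromal sum was 64.6 to 78.6 CPM. All 16 macrophage markers were detected in both groups, 7 of them higher and 4 lower in E-Mac, with sums of 9674 to 13089 CPM in E-Mac and 13698 to 14823 CPM in Mac. Adgre1, which encodes the macrophage antigen F4/80, had 712 to 808 CPM in E-Mac and 345 to 434 CPM in Mac, and the growth factor receptor gene Csf1r 863 to 1112 CPM in E-Mac and 878 to 1046 CPM in Mac. Granulocyte markers were also high, with a sum over 19 genes of 12528 to 19782 CPM in E-Mac and 37588 to 41581 CPM in Mac. In every library more genes had 2 counts than 1, by a factor of 1.69 to 1.93, so a single count need not be an independent molecule.

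Histone cluster RNA in these polyA-selected libraries was lower in E-Mac for each of the 5 histone types. All 69 genes together had 85.6, 106, 90.5 and 118 CPM in E-Mac 1 to 4, against 235, 274, 244 and 243 CPM in Mac 1 to 4. No E-Mac library reached the lowest Mac library. The means were 100.01 ± 14.7 CPM in E-Mac and 249 ± 17.4 CPM in Mac (SD, n = 4 each), a log2 ratio of -1.32. In a bulk sample fewer cells of a type and less RNA per cell cannot be told apart.

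The linker histones held most of this RNA. H1 summed to 64.6 ± 13.2 CPM in E-Mac and 157 ± 17.6 CPM in Mac, a log2 ratio of -1.28. Of the core histones, which form the nucleosome, H2B was the highest by sum, with 22.0 ± 3.28 CPM in E-Mac and 56.7 ± 1.45 CPM in Mac (log2 ratio -1.37). H4 summed to 5.66 ± 0.655 CPM in E-Mac and 17.4 ± 1.59 CPM in Mac (log2 ratio -1.62). H2A had the smallest log2 ratio, -0.78, with 6.56 ± 0.838 CPM in E-Mac and 11.2 ± 1.34 CPM in Mac. H3 had the lowest sums and the largest ratio, -2.32, with 1.25 ± 0.497 CPM in E-Mac and 6.23 ± 0.790 CPM in Mac. In none of the 5 types did the groups overlap. Without E-Mac 2 and 4 the log2 ratios were -1.54 for H1, -0.65 for H2A, -1.54 for H2B, -2.15 for H3 and -1.60 for H4. These sums are descriptions, given without a test.

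**Figure D1:**
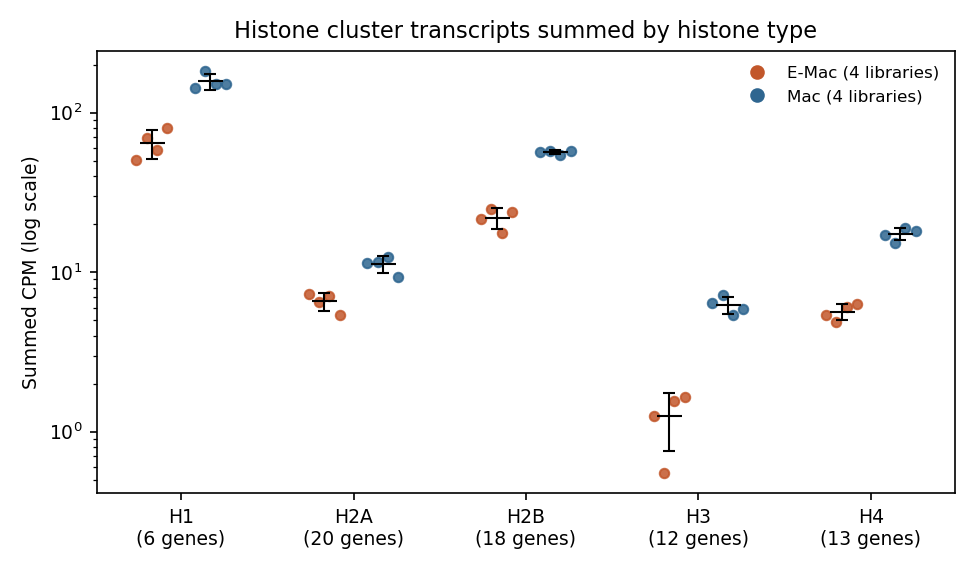
Summed CPM (log scale) of the histone cluster genes of each type in every library, E-Mac to the left of Mac, with the group mean and SD. The groups do not overlap in any type, and H1 is the highest in both, with means of 64.6 CPM in E-Mac and 157 CPM in Mac.

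The most counted gene of a type held a share of its counts that differed between types and groups. Hist1h1c held 98.2% of the H1 counts in E-Mac and 93.4% in Mac. Hist3h2a held 85.1% of the H2A counts in E-Mac and 36.8% in Mac, whereas Hist1h2bg held 2.84% of the H2B counts in E-Mac and 46.0% in Mac. Hist1h4i held 73.0% of the H4 counts in E-Mac and 55.7% in Mac, and Hist1h3d held 11.4% of the H3 counts in E-Mac and 35.9% in Mac. With that gene left out of each sum the log2 ratio was -3.12 for H1, -2.85 for H2A, -0.52 for H2B, -1.85 for H3 and -2.32 for H4. The H1, H2A and H4 sums without their leading genes thus differed more between the groups than the full sums, and the H2B and H3 sums differed less.

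Gene by gene, 16 members had enough counts to be tested with edgeR, 42 had counts but too few, and 11 had 0 counts in all 8 libraries. Of the 16, 14 were lower in E-Mac at an adjusted p under 0.05, 1 was higher (Hist3h2a) and 1 was not called (Hist1h2bc). Over all 13412 genes tested, 28.8% were called lower and 29.5% higher. The filter on low counts bears on this count: 7 of the 16 passed it in Mac libraries alone, while 6 passed in all 4 libraries of both groups. Those 6 were Hist1h1c, Hist3h2a, Hist2h2be, Hist1h2be, Hist1h2bc and Hist1h4i, of which 4 were lower. The others, Hist1h2bg, Hist1h1e and Hist1h4d, passed in all 4 Mac libraries but in only 2, 2 and 1 E-Mac libraries. The filter asks for 4 libraries, so these genes too entered the test through Mac. In 13 of the 16 the groups were apart, each E-Mac library being under each Mac library, as in 27.2% of all genes tested. At least a 2-fold decrease was called for 13 of them, against 10.5% of all genes tested, and their median log2 fold change was -1.77, against -0.003 for all genes tested. Members that passed in Mac libraries alone had to be lower in E-Mac, and the others that entered through Mac were prone to be. These figures therefore describe the 16 and support nothing further. Among the 6 that passed in all libraries of both groups, 3 were at least 2-fold lower with groups apart (Hist1h1c, Hist1h2be and Hist1h4i), and the median log2 fold change was -0.77.

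Among the linker histone genes, Hist1h1c (H1.2) was by far the most abundant histone cluster gene in both groups. Hist1h1c had 49.2, 68.2, 57.0 and 79.1 CPM in E-Mac 1 to 4, against 133, 173, 141 and 141 CPM in Mac 1 to 4. The highest E-Mac library stayed below the lowest Mac library. Its log2 fold change was -1.21 ± 0.14 (SE, edgeR adjusted p = 1.24e-05). The gene lies at chr13:23738808-23740367 on the plus strand and has a single exon. Per kilobase of annotated transcript it had a level of 40.6 CPM in E-Mac and 94.3 CPM in Mac, the highest of the 16 genes tested in either group.

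The other linker genes were scarcer and differed by more. Hist1h1e (H1.4) had 0.857, 0.688, 0.673 and 0.934 CPM in E-Mac 1 to 4, against 4.35, 4.75, 4.12 and 5.05 CPM in Mac 1 to 4. Hist1h1d (H1.3) had 0.156, 0.206, 0.269 and 0.359 CPM in E-Mac 1 to 4, against 3.35, 3.08, 4.85 and 3.76 CPM in Mac 1 to 4. Neither gene's groups overlapped, and both E-Mac ranges stayed under 1 CPM. The log2 fold changes were -2.53 ± 0.23 for Hist1h1e and -3.88 ± 0.33 for Hist1h1d (SE, edgeR adjusted p = 8.56e-07 and 4.42e-07). Hist1h1e overlaps Hist1h2be on the same strand, which leaves the counts of Hist1h1e uncertain. Hist1h1b (H1.5) had 0, 0, 4 and 0 counts in E-Mac 1 to 4, against 30, 20, 16 and 11 counts in Mac 1 to 4. All of its E-Mac counts came from E-Mac 3, and the fitted log2 fold change was -4.02 ± 0.77 (SE, edgeR adjusted p = 0.000555). Without E-Mac 3 every E-Mac library is at 0, and the fitted value of -7.23 then depends on the prior count and is no bound, while without E-Mac 2 and 4 it was -3.09. Hist1h1a (H1.1) was not tested and had 4 counts in E-Mac and 36 in Mac, and Hist1h1t, the testis H1, had none in either group.

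For H2A the members went apart. Hist1h2ac had 2 counts in each of E-Mac 1 to 4, against 55, 60, 78 and 46 counts in Mac 1 to 4, and its log2 fold change was -4.73 ± 0.37 (SE, edgeR adjusted p = 1.76e-07). Hist1h2ae had 7, 2, 3 and 4 counts in E-Mac 1 to 4, against 16, 10, 18 and 23 counts in Mac 1 to 4, with a log2 fold change of -1.90 ± 0.45 (SE, edgeR adjusted p = 0.00263). Both genes were low in every E-Mac library, and neither's groups overlapped. Hist3h2a, on chromosome 11, had 5.85, 5.85, 6.26 and 4.31 CPM in E-Mac 1 to 4, against 4.35, 3.58, 4.67 and 3.76 CPM in Mac 1 to 4. The E-Mac libraries were higher except for E-Mac 4, which lay within the Mac range. The log2 fold change was 0.44 ± 0.18 (SE, edgeR adjusted p = 0.0490), and the call was lost under most other settings, as when the library total alone set the scale (log2 fold change 0.29, adjusted p = 0.171). Over the alternatives tried its adjusted p ran from 0.0176 to 0.171. All 20 H2A genes overlap another annotated gene, Hist3h2a with Trim17 among them, and 26 of the 69 members do in all. The sources used here do not give how reads in overlapping genes were counted, which leaves the counts of these members uncertain.

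H2B held the member with the largest fold change and a member with nearly equal means. Hist1h2bg had 0.468, 0.275, 0.808 and 0.934 CPM in E-Mac 1 to 4, against 27.9, 26.4, 26.05 and 24.0 CPM in Mac 1 to 4. In counts these were 6, 4, 12 and 13 in E-Mac and 449, 317, 424 and 389 in Mac, so that the Mac libraries agreed closely and no E-Mac library came near them. The log2 fold change was -5.37 ± 0.21 (SE, edgeR adjusted p = 2.38e-10). Hist1h2bc had 10.99, 16.4, 9.83 and 14.8 CPM in E-Mac 1 to 4, against 11.2, 14.7, 12.2 and 15.1 CPM in Mac 1 to 4. The groups overlapped throughout, with a log2 fold change of -0.03 ± 0.17 (SE, edgeR adjusted p = 0.896), and its sign changed under several settings. Per kilobase of annotated transcript, the level of Hist1h2bg was 1.01 CPM in E-Mac and 42.2 CPM in Mac, and that of Hist1h2bc was 11.3 CPM in E-Mac and 11.5 CPM in Mac.

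The other tested H2B genes lay between these. Hist1h2be had 2.26, 2.20, 1.28 and 2.52 CPM in E-Mac 1 to 4, against 4.53, 4.33, 3.44 and 4.25 CPM in Mac 1 to 4 (log2 fold change -1.004 ± 0.24, SE, edgeR adjusted p = 0.00253). Its overlap with Hist1h1e on the same strand leaves the counts of both genes uncertain. Hist2h2be, on chromosome 3, had 7.25, 5.30, 4.51 and 4.46 CPM in E-Mac 1 to 4, against 7.21, 7.49, 7.92 and 8.57 CPM in Mac 1 to 4. E-Mac 1 lay within the Mac range and the other E-Mac libraries below it, and the log2 fold change was -0.54 ± 0.18 (SE, edgeR adjusted p = 0.0172). Without Mac 4, without E-Mac 3 or without E-Mac 2 and 4 the adjusted p of Hist2h2be was 0.0521, 0.0518 and 0.0829, in a range from 0.00219 to 0.0829 over all alternatives. Hist1h2bb had 0, 3, 6 and 1 counts in E-Mac 1 to 4, against 27, 11, 15 and 11 counts in Mac 1 to 4.

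**Figure D2:**
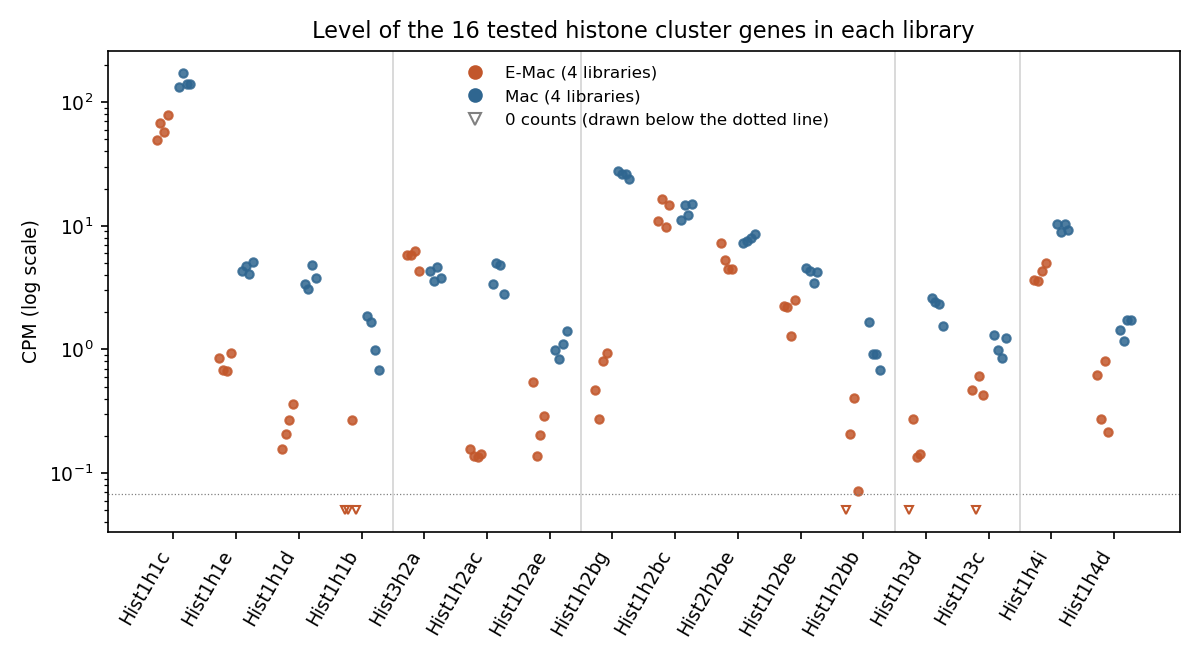
CPM (log scale) of the 16 tested histone cluster genes in each library, grouped by histone type, E-Mac to the left of Mac, with libraries at 0 counts drawn as triangles. Hist1h2bg and Hist1h2ac show the widest gaps between the groups, while the groups overlap in Hist3h2a, Hist1h2bc and Hist2h2be.

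The H3 and H4 genes had few counts apart from Hist1h4i. Hist1h3d had 0, 4, 2 and 2 counts in E-Mac 1 to 4, against 42, 29, 38 and 25 counts in Mac 1 to 4 (log2 fold change -3.89 ± 0.49, SE, edgeR adjusted p = 1.53e-05, and -4.78 without E-Mac 2 and 4). Hist1h3c had 6, 0, 9 and 6 counts in E-Mac 1 to 4, against 21, 12, 14 and 20 counts in Mac 1 to 4 (log2 fold change -1.54 ± 0.54, SE, edgeR adjusted p = 0.0253). Every Mac library of both genes lay above every E-Mac library. The call for Hist1h3c was lost without Mac 1 (adjusted p = 0.0674), Mac 4 (0.0620) or E-Mac 2 and 4 (0.115), and its adjusted p over all alternatives was 0.0114 to 0.115. Hist1h3e was not tested and had 6, 2, 2 and 3 counts in E-Mac 1 to 4, against 8, 23, 10 and 12 counts in Mac 1 to 4. Hist1h4i had 3.66, 3.58, 4.31 and 4.96 CPM in E-Mac 1 to 4, against 10.3, 8.99, 10.3 and 9.31 CPM in Mac 1 to 4. Its groups were well apart, with a log2 fold change of -1.23 ± 0.15 (SE, edgeR adjusted p = 1.38e-05). Hist1h4d had 8, 4, 12 and 3 counts in E-Mac 1 to 4, against 23, 14, 28 and 28 counts in Mac 1 to 4 (log2 fold change -1.64 ± 0.41, SE, edgeR adjusted p = 0.00372), and its adjusted p without E-Mac 2 and 4 was 0.0578, with 0.000877 as the lowest of the alternatives. Hist4h4, the H4 gene on chromosome 6, was not tested and had 2, 0, 2 and 0 counts in E-Mac 1 to 4, against 18, 7, 24 and 33 counts in Mac 1 to 4.

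The 42 members with too few counts for the test were also counted less often in E-Mac. Together they had 40, 36, 44 and 56 counts in E-Mac 1 to 4, against 248, 177, 263 and 286 counts in Mac 1 to 4, or 3.15 ± 0.647 CPM in E-Mac and 15.98 ± 1.24 CPM in Mac (SD, n = 4 each). Of the 42, 4 had more counts in E-Mac, 37 had more in Mac and 1 had equal counts, and 9 had 0 counts in E-Mac. The 4 with more counts in E-Mac, named after their values were seen, were Hist1h2ag with 9 counts in E-Mac and 4 in Mac, Hist1h2aj with 3 and 2, Hist1h3b with 2 and 1, and Hist1h2ap with 1 and 0. In an edgeR fit with no filter on low counts, 58 members entered, of which 33 were called lower and 0 higher, against 15.0% lower and 17.2% higher of all 25583 genes in that fit. At an unadjusted p under 0.05 that edgeR fit had 1 member higher, Hist3h2a, which DESeq2 with the usual filter also called higher. By type the lower calls in it were 5 of 5 H1, 5 of 14 H2A, 9 of 16 H2B, 5 of 10 H3 and 9 of 13 H4 genes. The 11 genes at 0 counts were Hist1h1t, Hist1h2aa, Hist1h2ah, Hist1h2al, Hist1h2an, Hist2h2aa1, Hist2h2aa2, Hist1h2ba, Hist2h2bb, Hist2h3b and Hist2h3c1. Hist1h1t, Hist1h2aa and Hist1h2ba encode testis histones, and Hist2h2aa1 and Hist2h2aa2 had 3.72% and 0% of their 50-base words to themselves. All of the 11 except Hist1h1t and Hist1h2ba overlap another annotated gene. How reads in such overlaps were counted is not known here, so 0 counts need not mean that a gene was silent.

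Copies of histone genes share much of their coding sequence, which limits what a count can be assigned to. Of the 69 members, 13 had 90% or more of their 50-base words to themselves, and 32 had under 50%. None of the 16 tested genes was under 50%, and the lowest was Hist1h2bg with 50.3%. Hist1h2bg shared 45.0% of its words with Hist1h2bc, while Hist1h1c had 91.5% of its words to itself. Whether reads that match several copies were counted is a setting that the sources used here do not give.

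The counts were also summed by the length of the annotated 3′ untranslated region. The 17 members with 500 bases or more held 91.8% of the members' counts in E-Mac and 78.8% in Mac. The 50 with fewer than 500 bases held 8.13% in E-Mac and 21.2% in Mac. Some of these 50, Hist1h1b and Hist1h2bl among them, have an annotation that stops at the coding sequence, so their true length is not known here. The shorter class had 457 counts in E-Mac and 3168 in Mac, and without Hist1h2bg 422 in E-Mac and 1589 in Mac. For the longer class the counts were 5164 in E-Mac and 11805 in Mac, and without Hist1h1c 1594 in E-Mac and 2998 in Mac. In Mac the longer class without Hist1h1c thus held fewer counts than the whole shorter class (3168). It held more than the shorter class without Hist1h2bg (1589). Of the tested genes, 6 were in the shorter class, with log2 fold changes from -5.37 to -1.23, and 10 in the longer, with log2 fold changes from -4.73 to 0.44. A longer transcript gives more reads per molecule, so the level of these classes is not compared per molecule, and the difference between the classes was not tested.

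**Figure D3:**
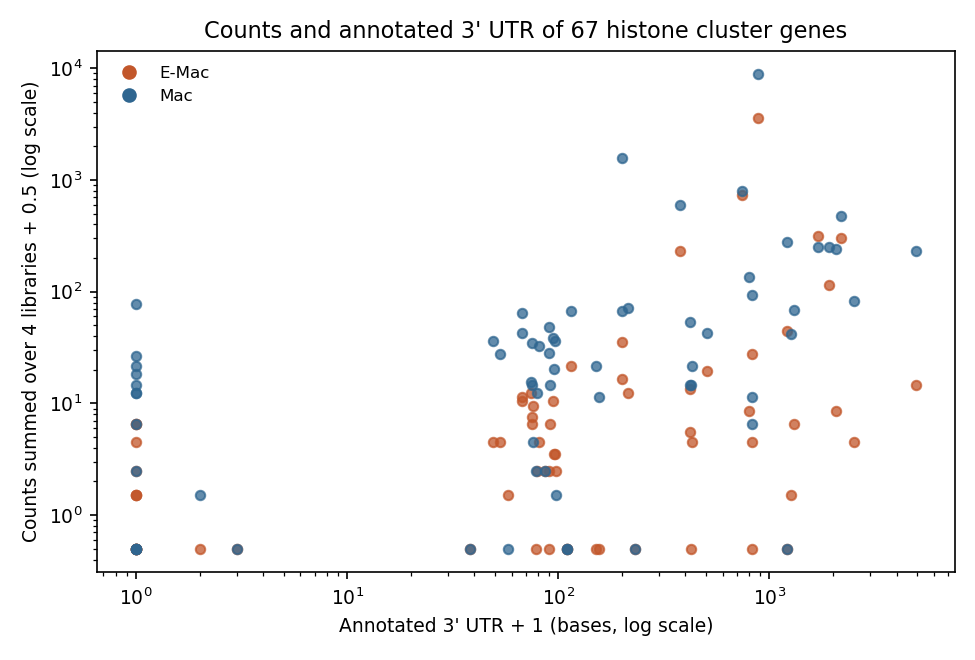
Counts summed over 4 libraries (plus 0.5, log scale) against the annotated 3′ untranslated region (bases plus 1, log scale) for the 67 members that have one annotated or a length of 0, E-Mac and Mac in separate colours. The highest pair of points is Hist1h1c, and members under 500 bases sum to 457 counts in E-Mac and 3168 in Mac.

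Many histone cluster genes stand head to head and share the stretch between their starts. For the H2A and H2B pairs below, picked after their values were seen, neighbours differed in level. Hist1h2ac (minus strand, chr13:23681467-23683948) and Hist1h2bc (plus strand, chr13:23684199-23692908) start 251 bases apart. Counts of Hist1h2ac came to 1.09% of those of Hist1h2bc in E-Mac and to 29.8% in Mac. Hist1h2ae (minus strand, chr13:23570517-23571220) and Hist1h2bg (plus strand, chr13:23571396-23572013) start 176 bases apart, and counts of Hist1h2ae came to 45.7% of those of Hist1h2bg in E-Mac and to 4.24% in Mac. In the first pair the H2A gene was the one that fell while the H2B gene did not pass the test, and in the second both fell, the H2B gene by more.

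The sequences below, from RefSeq on GRCm38.p6, are the stretches upstream of Hist1h2bg and Hist1h2ac that lie between the members of each pair, and, for a gene outside such a pair, that of Hist1h1c. Each is read 5′ to 3′ on the strand of its gene. Capitals mark, on either strand, the CCAAT box (CCAAT or ATTGG), the TATA box letters TATAAA, the octamer ATTTGCAT known from H2B promoters (or ATGCAAAT), and the letters AAACACA known from H1 promoters. No capital run belongs to more than 1 motif.
Hist1h2bg: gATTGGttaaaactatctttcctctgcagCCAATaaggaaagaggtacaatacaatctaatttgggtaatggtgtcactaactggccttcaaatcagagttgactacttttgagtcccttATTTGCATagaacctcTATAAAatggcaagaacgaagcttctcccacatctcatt
Hist1h2ac: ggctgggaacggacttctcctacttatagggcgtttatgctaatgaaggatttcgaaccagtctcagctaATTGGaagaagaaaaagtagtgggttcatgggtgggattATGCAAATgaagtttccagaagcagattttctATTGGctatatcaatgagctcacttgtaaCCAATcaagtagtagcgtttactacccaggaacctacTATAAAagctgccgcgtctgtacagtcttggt
Hist1h1c: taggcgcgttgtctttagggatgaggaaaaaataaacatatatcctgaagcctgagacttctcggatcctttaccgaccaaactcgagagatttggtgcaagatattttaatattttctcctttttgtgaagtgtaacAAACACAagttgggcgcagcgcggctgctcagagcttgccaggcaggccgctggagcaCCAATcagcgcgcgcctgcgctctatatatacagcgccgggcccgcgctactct
They cover chr13:23571221-23571395 (plus strand), chr13:23683960-23684198 (minus strand) and chr13:23738557-23738806 (plus strand). Both stretches between paired genes hold the CCAAT box, the octamer and the TATA letters. The TATA letters read only on the strand of Hist1h2bg and of Hist1h2ac, not on that of the partner gene. The part of these letters in the levels was not tested. In the 250 bases before the start, 61 members matched a promoter in the table. CCAAT stood in 82.0% of these and in 33.8% of all 32851 promoters, TATAAA in 47.5% and 12.4%, and the octamer in 21.3% and 1.60%. By type, CCAAT was found in 6 of 6 H1, 17 of 17 H2A, 16 of 16 H2B, 8 of 10 H3 and 3 of 12 H4 genes. The octamer was found in 7 H2A and 6 H2B genes and in 0 of the other types, and AAACACA in 5 of 6 H1 genes, 14.8% of the 61 members and 6.25% of all promoters. The windows of head-to-head genes can overlap, as for Hist1h2ae and Hist1h2bg. A site in the overlap counts for both genes in these shares. A match of letters is a description and not a measured binding site.

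Of 10 genes listed as replication-independent and tested, 7 were lower, 1 was higher and 2 were not called, with a median log2 fold change of -0.48. Over all genes tested 28.8% were lower and 29.5% higher. The 7 lower genes included H2afx and Cenpa, the centromere histone gene (log2 fold change -1.36 ± 0.13, SE). Whether the listed genes kept a constant level through the cell cycle was not tested. H2afx, the H2A variant phosphorylated at DNA breaks, whose message also carries the stem-loop letters, had 47.0, 28.3, 41.2 and 33.7 CPM in E-Mac 1 to 4, against 145, 141, 155 and 177 CPM in Mac 1 to 4 (log2 fold change -2.04 ± 0.14, SE, edgeR adjusted p = 1.66e-07). H2afz and H2afv, the genes of the H2A.Z variant, had log2 fold changes of -1.09 ± 0.08 and -1.71 ± 0.09 (SE). The groups did not overlap in any of these genes. H3f3a and H3f3b both encode the variant H3.3. H3f3a averaged 385 ± 25.8 CPM in E-Mac and 402 ± 22.3 CPM in Mac (SD, n = 4 each), with a log2 fold change of -0.06 ± 0.07 (SE, edgeR adjusted p = 0.501). Of the alternatives, library size only called H3f3a lower (log2 fold change -0.20, adjusted p = 0.0223), and adjusted p went up to 0.924 in the others. H3f3b averaged 1057 ± 82.5 CPM in E-Mac and 1629 ± 380 CPM in Mac, with a log2 fold change of -0.62 ± 0.14 (SE, edgeR adjusted p = 0.00172), and its adjusted p was 0.134 without E-Mac 2 and 4 and as low as 3.33e-05 among the alternatives. H1f0, the linker histone of resting and differentiated cells, had a log2 fold change of 0.12 ± 0.10 (SE, edgeR adjusted p = 0.329), which was 0.25 and called without E-Mac 2 and 4 (adjusted p = 0.00860, highest of the alternatives 0.868) and -0.024 with library size only. H1fx was the gene that was higher, at 2.34, 2.54, 1.62 and 2.95 CPM in E-Mac 1 to 4, against 0.186, 0.749, 0.491 and 0.370 CPM in Mac 1 to 4 (log2 fold change 2.42 ± 0.39, SE, edgeR adjusted p = 0.000134).

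**Figure D4:**
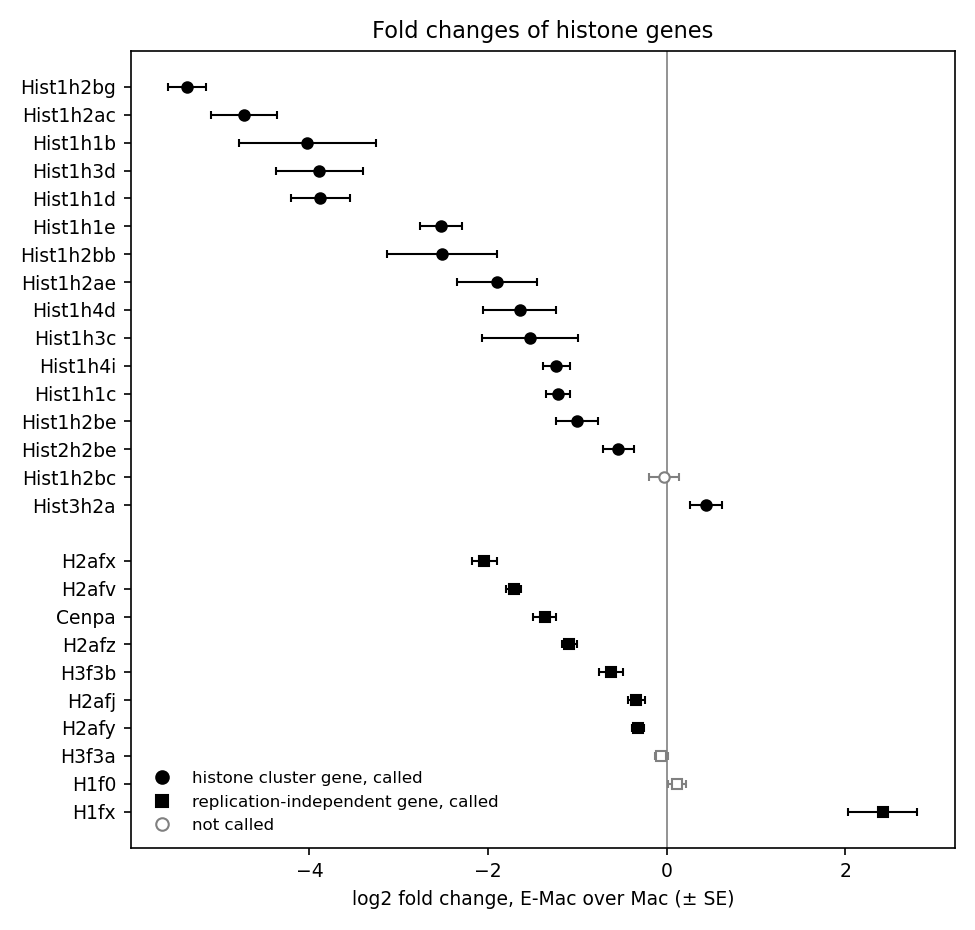
Log2 fold change, E-Mac over Mac, with its SE for the 16 tested histone cluster genes (circles) and 10 tested replication-independent histone genes (squares), filled where the edgeR adjusted p was under 0.05. Hist1h2bg lies farthest to the left at -5.37, and H1fx farthest to the right at 2.42.

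Genes of the machinery that makes and ends histone messages were listed apart. Of 24 tested genes of histone mRNA 3′ end processing and decay, 8 were lower and 3 higher, with a median log2 fold change of -0.05. Over all genes tested 28.8% were lower and 29.5% higher, so the share lower in this list was near that of all genes. Slbp, which encodes the protein that binds the stem-loop, averaged 52.6 ± 4.48 CPM in E-Mac and 67.7 ± 1.56 CPM in Mac (SD, n = 4 each; log2 fold change -0.36 ± 0.07, SE, edgeR adjusted p = 0.000948). Srrt, which encodes ARS2, a partner of the cap-binding complex, had a log2 fold change of -0.42 ± 0.08 (SE). The genes called higher were Cpsf2, which encodes a subunit of the cleavage complex, with a log2 fold change of 0.41 ± 0.07 (SE), Zcchc11, an enzyme that adds uridines to RNA ends, with 0.59 ± 0.11, and Lsm10, a subunit of the U7 particle, with 0.39 ± 0.10. Of 14 genes of histone gene transcription, 8 were lower and 1 higher, beside the 28.8% lower and 29.5% higher of all genes tested, with a median log2 fold change of -0.26. Npat, the coactivator that works at histone gene promoters, averaged 19.7 ± 2.76 CPM in E-Mac and 21.4 ± 1.02 CPM in Mac (SD, n = 4 each), with overlapping groups and a log2 fold change of -0.12 ± 0.11 (SE, edgeR adjusted p = 0.376), or 0.018 without E-Mac 2 and 4. Cdk2, the kinase that acts on NPAT, averaged 55.0 ± 3.50 CPM in E-Mac and 100.5 ± 5.54 CPM in Mac (log2 fold change -0.87 ± 0.07, SE). Nfyb, a subunit of the factor that binds CCAAT, had a log2 fold change of -0.58 ± 0.07 (SE). The E2F genes, which encode factors of S-phase gene transcription, went apart, with E2f2 at a log2 fold change of -1.19 ± 0.06 and E2f3 at 0.59 ± 0.12 (SE).

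Of 23 tested genes of histone chaperones, which carry histones to DNA, 10 were lower and 5 higher, beside the 28.8% lower and 29.5% higher of all genes tested, with a median log2 fold change of -0.18. Asf1b, the form of the H3-H4 chaperone ASF1 tied to dividing cells, had a log2 fold change of -1.45 ± 0.13 and Hjurp, the chaperone of the centromere histone, of -1.42 ± 0.07 (SE). Asf1a, the other form of ASF1, had a log2 fold change of 0.58 ± 0.12 (SE). Daxx, which brings H3.3 to DNA, had 334, 332, 363 and 299 CPM in E-Mac 1 to 4, against 100.5, 111, 109 and 104 CPM in Mac 1 to 4 (log2 fold change 1.64 ± 0.07, SE, edgeR adjusted p = 8.57e-10). No E-Mac library of Daxx came near a Mac library. The other genes called higher were Hat1, an enzyme that acetylates new H4, the importin gene Ipo4 and Nap1l4, with log2 fold changes of 0.37 ± 0.09, 0.65 ± 0.21 and 0.23 ± 0.06 (SE). With library size only these were not called, at adjusted p of 0.0527 for Hat1, 0.0529 for Ipo4 and 0.270 for Nap1l4, and over all alternatives the highest were 0.0527, 0.0711 and 0.270.

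Of 44 tested genes of DNA replication and S phase, 23 were lower and 5 higher, beside the 28.8% lower and 29.5% higher of all genes tested, with a median log2 fold change of -0.23. Mki67, the proliferation marker Ki-67, averaged 193 ± 44.9 CPM in E-Mac and 719 ± 33.0 CPM in Mac (SD, n = 4 each; log2 fold change -1.90 ± 0.14, SE). The thymidine kinase gene Tk1 had a log2 fold change of -1.04 ± 0.15 and Pold1, the catalytic subunit of DNA polymerase delta, of -0.77 ± 0.11 (SE). Among the genes called higher were Orc1 with a log2 fold change of 0.90 ± 0.28, Gins2 with 0.83 ± 0.19, Cdt1 with 0.32 ± 0.10 and Rfc2 with 0.31 ± 0.07 (SE), which act at replication origins or forks. With library size only Cdt1 and Rfc2 were not called, at adjusted p of 0.157 and 0.0663, which were the highest of the alternatives. Summed over the list, S-phase genes had 1506 to 2347 CPM in E-Mac and 3083 to 3372 CPM in Mac. The histone cluster sums differed in the same direction as this sum, and its part in them was not tested.

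**Figure D5:**
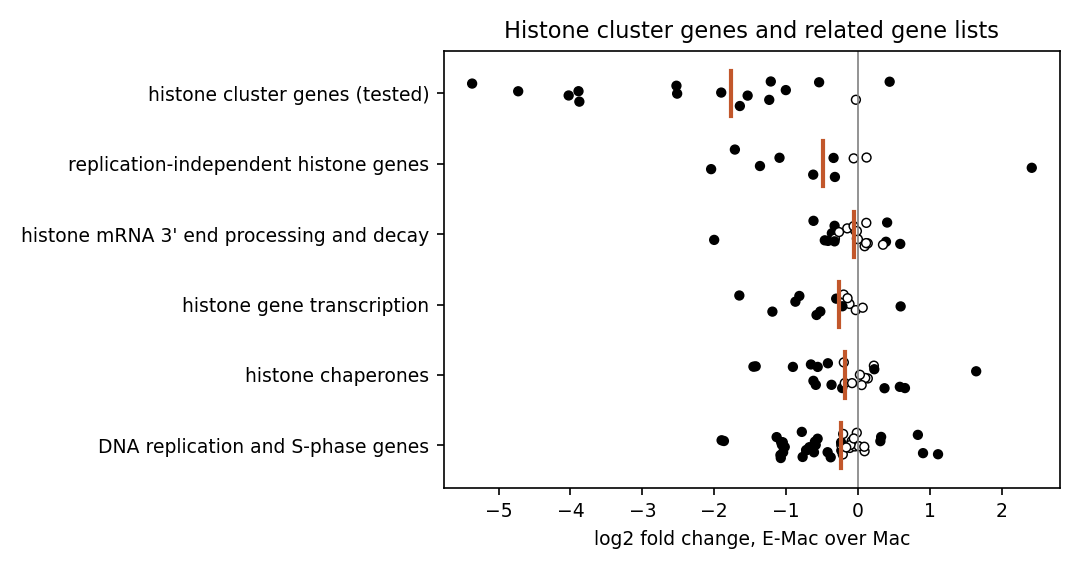
Log2 fold change, E-Mac over Mac, of each tested gene in the histone cluster and in 5 related lists, filled where the edgeR adjusted p was under 0.05, with the median of each list as a bar. The medians lie at -1.77 for the 16 histone cluster genes tested and between -0.48 and -0.05 for the other lists. Only 6 of the 16 passed the filter in all libraries of both groups (median -0.77). The other members tested entered through Mac libraries, 7 of them with no E-Mac library past the filter.

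Markers of other cells also differed between the groups. Of 19 granulocyte markers tested, 13 were lower and 2 higher in E-Mac, and none was at 0 in a group. Of 12 erythroid markers, 6 tested, 5 were lower and 1 (Tfrc) was higher, with sums of 54.1 to 77.6 CPM in E-Mac and 69.6 to 93.5 CPM in Mac. Of these 6 were at 0 in every E-Mac library, Hba-a1, Hba-a2, Hbb-bs, Slc4a1 and Car1 among them. B cell markers summed to 110 to 186 CPM in E-Mac and 224 to 242 CPM in Mac, with 7 of 12 tested, 4 higher and 2 lower, Igll1 at 0 in all libraries and Ebf1 at 0 in Mac. T and NK cell markers summed to 4.47 to 6.47 CPM in E-Mac and 17.1 to 22.5 CPM in Mac, with 3 of 4 tested lower, Cd3e at 0 in all libraries, Klrb1c at 0 in E-Mac, and Cd3g and Cd8b1 at 0 in Mac. Stem and progenitor markers summed to 260 to 272 CPM in E-Mac and 302 to 315 CPM in Mac, with 4 of 10 tested lower and 2 higher. Of 16 stromal markers, 9 were tested, 6 were higher and 1 was lower, and Col3a1, Pdgfra and Lum were at 0 in Mac. The part of these markers in the histone values was not tested.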

How the data were processed

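The table that the authors deposited holds raw counts of reads for each gene symbol in each library. Per the submitters' processing notes it was made with bcl2fastq, HISAT2, featureCounts, Subread and DESeq2 on mm10. Versions, annotation release, strand setting and the treatment of multi-mapping reads: not given in the sources used here. The 26 names in date form, which spreadsheet programs make of gene symbols, were left out (0.133 to 0.160% of a library's counts). Genes were tested with edgeR 4.0.16 (R 4.3.3): low counts were filtered with filterByExpr (at least 10 counts, 15 in total), libraries were scaled with TMM factors (0.931 to 0.970 in E-Mac, 1.03 to 1.07 in Mac), and the group was fitted over all 8 libraries by robust quasi-likelihood, with p-values of 13412 genes adjusted by Benjamini-Hochberg. The SE is the size of the log2 fold change over the square root of F. A CPM is a count per 1000000 of the TMM-scaled library total over tested genes. Libraries of a group differed by more than sampling noise (chi-square over its degrees of freedom 5.06 or more). The fit was tested on simulated data. Gene models came from GENCODE M21.

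Within each histone type the 3 most counted members were named, with the 3 largest called decreases and up to 3 increases of at least 1 CPM in the higher group, members called against their type's majority, and those at 0. Of each related list the 3 with the smallest adjusted p and up to 5 called against its majority were named, with Slbp, Npat, H2afx, H2afz, H3f3a, H3f3b and H1f0 whatever their values. Hist1h1a, Hist1h2be, Hist1h2bb and Cenpa were added after their values were seen. Some genes that the rule gave are not reported here. The members, lists, alternatives and this rule were chosen with earlier results of these data known. Alternatives were RLE and upper-quartile factors, unscaled library sizes (library size only), a fit without filter or with a filter of 10 CPM in 4 libraries, limma-voom (limma 3.58.1), DESeq2 1.42.0, the replicate number as a block, no robust option, an adjusted p threshold of 0.01, each library left out, E-Mac 2 and 4 left out, and for sums the most counted member left out or tested members only.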

Additional observations from a re-analysis of the deposited data

Results flagged for a closer look

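In 108 groups of 4 libraries looked at for a library far from the other 3, 4 had one, and chance alone flags about 5% of groups. Hist1h1b had 0.269 CPM in E-Mac 3 and 0 CPM in the other E-Mac libraries. Cdk2 had 60.2 CPM in E-Mac 4 and 52.8 to 53.8 CPM in the other E-Mac libraries. E2f3 had 16.5 CPM in E-Mac 2 and 20.4 to 21.2 CPM in the other E-Mac libraries. Cdt1 had 45.6 CPM in Mac 4 and 37.5 to 38.8 CPM in the other Mac libraries.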

How the results depend on the processing

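The labels do not say that the replicate numbers pair the libraries. Deviations from the group means of same-numbered libraries correlated at -0.05, 0.07, 0.01 and -0.14, which cannot exclude a pairing. With the replicate block 14 members were lower, 0 higher and 7458 genes were called in all. Members called lower were 33 with no filter, 2 with at least 10 CPM in 4 libraries and 14 to 18 with 1 library left out. Members called higher were 0 with library size only, upper-quartile factors, at least 10 CPM, no filter, limma-voom, the replicate block, no robust option and an adjusted p under 0.01, and 0 to 1 with 1 library left out. Library size only moved the median of all genes to -0.15. Genes called higher among replication-independent histone genes were 0 with at least 10 CPM and 2 without E-Mac 2 and 4, and among 3′ end genes 5 without those libraries. Chaperones called higher were 2 with library size only, 9 without E-Mac 2 and 4 and 4 to 9 with 1 library left out. S-phase genes called higher were 3 with library size only, with at least 10 CPM and with an adjusted p under 0.01, and 8 without E-Mac 2 and 4. Without the most counted member the log2 ratio of the sums was -3.12 for H1, -2.85 for H2A, -0.52 for H2B and -2.32 for H4, and for H4 over tested members -1.28. The sign turned for Hist1h2bc (0.0020 with no filter, and 0.038, 0.040, 0.048 and 0.092 without Mac 2, Mac 4, E-Mac 1 or E-Mac 3), H1f0 (-0.024 with library size only) and Npat (0.018 without E-Mac 2 and 4). The causes were not tested. For counts and sums 319 other values stayed within 1.5 times or 1 SD. For 48 of the genes named, 850 values kept direction and call, 36 lost the call and 2 gained it. Low counts limit most members: 42 of 69 had too few counts to be tested.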
